A study of Mus musculus with 15 samples.

Results

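Tim-4-CD4- macrophages of the small intestine were compared with Ly6Chi monocytes of the blood, across all genes, with 4 macrophage and 3 monocyte libraries of the 15 libraries in the series. The libraries were chosen by their deposited titles. All cells came from adult male wild type C57BL/6 mice. Each library held the sorted cells of 3 mice, pooled, and monocyte replicate 2 those of 4. The macrophages were live, lineage-negative CD45+CD11b+ cells with CD64 and MHCII, without Ly6C, and negative for both Tim-4, a receptor for apoptotic cells, and CD4. They came from gut tissue that was stripped of its epithelium and digested with enzymes, whereas the monocytes came from blood. Tissue origin, preparation and population therefore changed together and cannot be told apart. The other 8 libraries, from gut macrophages with CD4 alone (Tim-4-CD4+) or with both proteins (Tim-4+CD4+) of the same kind of mice, entered the fit and are given only as levels.

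Ly6Chi monocytes leave the bone marrow through the chemokine receptor CCR2, circulate briefly and enter tissues. In the adult gut wall they replace most of the macrophages, losing Ly6C and gaining MHC class II on the way. Gut macrophages take up bacteria and dying cells, make IL-10, and are known for answering bacterial products without strong inflammation. The comparison asks how far the RNA of the subset without Tim-4 and CD4 departed from that of the circulating cell and which monocyte transcripts it still held. It sets 2 sorted populations side by side and is not a time course.

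Values are CPM, counts of a gene scaled to the same total in every library, in the order of the replicate numbers. They are not divided by gene length, so they compare one gene between libraries and not one gene with another. Changes are log2 fold changes of macrophages over monocytes with their standard error (SE), from edgeR's quasi-likelihood test with Benjamini-Hochberg adjustment over all genes tested, and "rose" and "fell" are used at an adjusted p under 0.05. A gene was called kept when the 95% interval of its change lay within 2-fold in either direction. The 7 libraries held between 39388763 and 139410518 counts on genes, and replicates differed from each other by more than sampling noise in both groups. The p-values rest on the spread between separate sorts of pooled mice. That spread was estimated over all 15 libraries, so the libraries of the CD4+ subsets also shaped it. The contrast itself sets 4 sorts of macrophages against 3 of monocytes. In sorted bulk RNA, fewer cells of a type and less RNA per cell cannot be told apart.

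The labels were first checked against the genes that define both cells. Ccr2 (ENSMUSG00000049103.13, chr9:124101950-124113557 in GRCm38, GENCODE M21), the receptor that brings monocytes out of the marrow, read 2884, 2243 and 2762 CPM in the monocyte libraries and 759, 510.2, 688 and 684 CPM in the macrophage libraries. Every macrophage library was below every monocyte library, yet none was near 0, and Ccr2 fell by 1.99 on the log2 scale (SE 0.30, edgeR adjusted p = 2.18e-05). The same gene had means of 84.1 CPM in Tim-4-CD4+ and 8.39 CPM in Tim-4+CD4+ macrophages. Ly6c2 (ENSMUSG00000022584.14, chr15:75108158-75111970), which encodes the Ly6C surface protein of the monocyte gate, read 1545, 820.0 and 912 CPM in the monocyte libraries and 1.497, 1.73, 2.13 and 1.53 CPM in the macrophage libraries. The groups lay far apart, with a log2 fold change of -9.31 (SE 0.57, edgeR adjusted p = 3.12e-10). Its near-identical neighbor Ly6c1 read 1.16 and 1.13 CPM, and only uniquely mapped reads were counted, so the split of reads between these copies is uncertain.

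H2-Ab1 (ENSMUSG00000073421.5, chr17:34257689-34269419), the beta chain of the class II molecule I-A, read 216, 70.5 and 160.1 CPM in the monocyte libraries and 12780.5, 14863, 13577 and 13545 CPM in the macrophage libraries. The macrophage values were all above the monocyte values, which themselves spread widely, and the log2 fold change was 6.52 (SE 0.33, edgeR adjusted p = 2.72e-11). Cx3cr1 (ENSMUSG00000052336.6, chr9:119901616-120069879), the fractalkine receptor of monocytes and gut macrophages, read 549, 653 and 740.4 CPM in the monocyte libraries and 947, 674, 947 and 1033 CPM in the macrophage libraries. Macrophage replicate 2 lay within the monocyte range and the other 3 above it, so that the gene rose by 0.48 on the log2 scale (SE 0.15, edgeR adjusted p = 0.0116) and stayed within 2-fold. Without monocyte replicate 1 the change was 0.39 (edgeR adjusted p = 0.051). Tim-4 and CD4 RNA, from Timd4 and Cd4, was low but highest in macrophage replicate 3. Timd4 read 0.566, 0.151, 2.93 and 0.802 CPM and Cd4 14.6, 17.1, 39.2 and 20.7 CPM in the macrophage libraries, against 356 and 816 CPM in the mean of Tim-4+CD4+ macrophages.

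Of the other sort proteins, CD11b (Itgam) and CD64 (Fcgr1) did not separate the cells at the RNA level. Itgam was 353 ± 24.99 CPM in monocytes and 346 ± 20.7 CPM in macrophages (SD, n = 3 and 4), and Fcgr1 was 279 ± 99.2 and 300 ± 13.3 CPM. Both were kept, with 95% intervals of -0.24 to 0.19 and -0.26 to 0.46 for the log2 fold change, although Fcgr1 rose by 0.40 (edgeR adjusted p = 0.035) when monocyte replicate 1 was left out. Csf1r, the receptor for the macrophage growth factor CSF-1, rose by 0.94 (SE 0.08, edgeR adjusted p = 1.28e-08), and Adgre1, which encodes F4/80, by 1.99 (SE 0.11, edgeR adjusted p = 9.93e-11). Itgax, the CD11c integrin chain, rose from 16.6 to 689.9 CPM. Ptprc, which encodes CD45, fell by 0.62 and was kept within 2-fold. Some usual markers went against the monocyte label. The alarmins S100a8 and S100a9 averaged only 1.22 and 0.413 CPM in monocytes, while Ace and Spn, often used for Ly6Clo monocytes, averaged 735 and 295 CPM there. The other listed Ly6Clo markers were mixed in monocytes. Nr4a1, Ceacam1, Adgre4 and Treml4 averaged 501, 361.5, 231 and 119 CPM. Cd36, Eno3, Itgax, Pparg and Cd300e averaged only 24.4, 21.9, 16.6, 9.22 and 2.285 CPM.

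**Figure D1:**
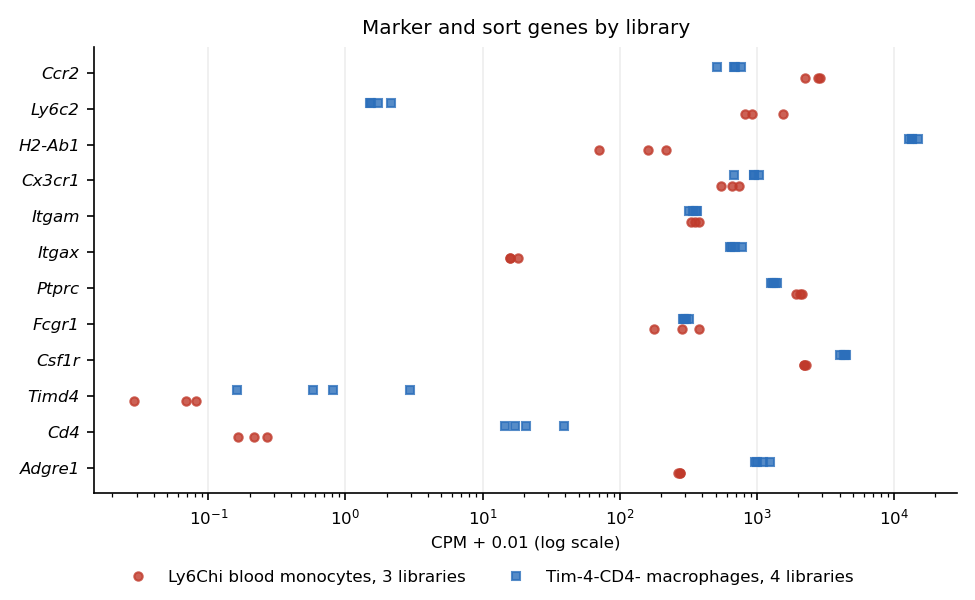
CPM on a log axis (CPM + 0.01) of the 4 marker genes and of the genes of the sort proteins, with 1 point per library (circles for the 3 monocyte and squares for the 4 Tim-4-CD4- macrophage libraries). Ly6c2 and Ccr2 are lower in every macrophage library, H2-Ab1 and Itgax are higher, and Cx3cr1, Itgam and Fcgr1 overlap between the groups.

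The difference between both cells was broad. Of 15802 genes tested, 5900 (37.3%) rose and 4441 (28.1%) fell, and 9735 of these 10341 genes had no overlap between the libraries of the groups. Among the genes called, the rises were the larger changes, with a median log2 fold change of 2.67 against -0.76 for the falls. At least 16-fold differences numbered 2248 upward and 221 downward. In 1551 genes that rose, no monocyte library had more than 3 counts, and in 68 genes that fell, no macrophage library did. Such genes passed the filter only through the groups where they were high, and most libraries in the fit were of gut macrophages. Markers of other gut cells, given below, are among the genes that rose. The imbalance thus depends in part on which genes were tested. With a mean of at least 1 CPM required instead, 4235 genes rose and 3894 fell. Over all genes tested, the median log2 fold change was 0.08, and 6542 genes (41.4%) were kept within 2-fold. The shares that rose, fell and were kept, 37.3%, 28.1% and 41.4%, are the background for each gene list below.

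Monocyte transcripts were mostly kept when the whole set was considered. Of 3852 genes with a monocyte mean of at least 50 CPM, 2644 (68.64%) were kept within 2-fold, 648 fell by at least 2-fold and 168 rose by at least 2-fold. Only 21 of these genes were left at under 1% of their monocyte level. Among them were Ly6c2, S100a4, Chil3, Fn1, Vcan, Hp, Mmp8, Cd177, Padi4 and Ace, which are in the list of classical monocyte genes, and F10, F5, Ptgir, Nfe2, Pi16, Dgkg, Plcb1, Serpinb10, Gm9733 and I830127L07Rik, which are not and were named after their values were seen.

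**Figure D2:**
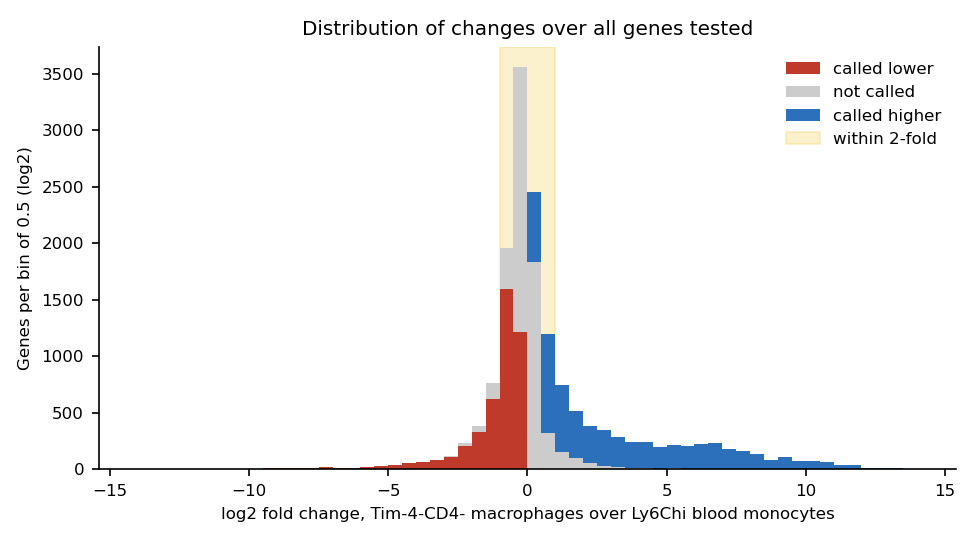
Log2 fold changes of Tim-4-CD4- macrophages over Ly6Chi blood monocytes (x axis) for all 15802 genes tested, with the number of genes per bin of 0.5 on the y axis as stacked bars for genes that fell, rose or were not called, and a shaded band where the fold change is within 2-fold. The falls crowd close to 0 (median -0.76), whereas the rises spread far to the right (median 2.67).

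The deepest falls were in products of the circulating cell. The leading 12 named genes with no overlap and a monocyte mean of at least 50 CPM had log2 fold changes from -11.84 to -7.67. Chil3, a secreted chitinase-like protein of monocytes and of alternatively activated macrophages, read 1409, 2639.6 and 891 CPM in the monocyte libraries and 1.17, 1.07, 1.40 and 2.12 CPM in the macrophage libraries. Its monocyte values spread widely, and the macrophage values did not come near them (log2 fold change -10.19, SE 0.73, edgeR adjusted p = 2.64e-09). Fn1, which encodes fibronectin, read 5042, 6342 and 5172 CPM in the monocyte libraries and 36.2, 23.1, 25.5 and 23.6 CPM in the macrophage libraries, with no overlap and a log2 fold change of -7.67 (SE 0.37, edgeR adjusted p = 1.65e-11).

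Others of the 12 were Hp, which encodes haptoglobin, the carrier of free hemoglobin, at 976 ± 178 and 1.74 ± 0.144 CPM (SD, n = 3 and 4), and Vcan, the matrix proteoglycan versican, at 367 ± 128 and 1.15 ± 0.253 CPM. Cd177, a surface protein known from neutrophils and, like Padi4, also on the list of neutrophil markers, went from 430.1 to 0.580 CPM. Padi4, which converts arginine to citrulline in proteins, went from 83.9 to 0.137 CPM. S100a4, a calcium-binding protein of migrating cells, was at 209.6 and 0.909 CPM. They also included Ly6c2, Pi16, Serpinb10 and the uncharacterized I830127L07Rik, which read 322, 225 and 183 CPM in monocytes and 0.0730, 0.134, 0 and 0.0259 CPM in macrophages.

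The largest rises, by the same rule, lay between 10.96 and 12.63 on the log2 scale and started from almost no counts. They included the neutrophil chemokines Cxcl1 and Cxcl2 and the monocyte chemokine Ccl7. Il1a, an alarm cytokine, and Ptgs2, the inducible enzyme of prostaglandin synthesis, were also among them. Ptgs2 read 0.638, 0.399 and 0.297 CPM in the monocyte libraries and 1320.5, 1397, 1041 and 1232 CPM in the macrophage libraries, with no overlap (SE 0.31, edgeR adjusted p = 1.33e-14). Cxcl1 read 0.0142, 0.00973 and 0 CPM in the monocyte libraries and 81.2, 112, 42.3 and 60.8 CPM in the macrophage libraries. Since no monocyte library held more than 3 counts of it, its rise is a lower bound, at least 2093-fold when 3 counts are set as the floor in each library.

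The same bound was at least 2997-fold for Apol10b, of the apolipoprotein L family, at least 2299-fold for Col14a1, a fibril-associated collagen, and at least 1754-fold for Bmp2, a growth factor of the TGF-beta family. Slco2b1, an organic anion transporter, rose from 0.251 to 552 CPM, and Itga9, an integrin chain, from 0.221 to 479 CPM. Gm8221, an apolipoprotein L-like gene model, was at 126 CPM in macrophages.

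**Figure D3:**
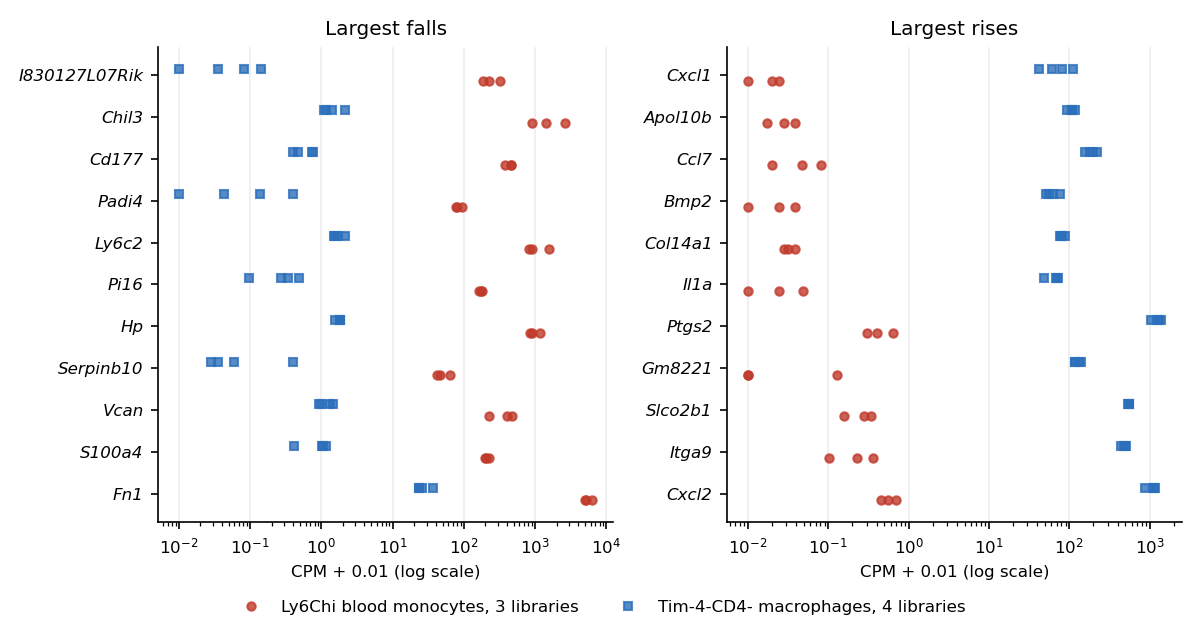
CPM on a log axis (CPM + 0.01) of the genes with the largest falls (left) and the largest rises (right) that the text names, with 1 point per library for 3 monocyte and 4 Tim-4-CD4- macrophage libraries. For every gene shown, all points of one group lie apart from all points of the other, and the low group is often at or near 0 CPM.

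The list of classical monocyte genes was then followed gene by gene. It also held Ace, Spn, Treml4 and Nr4a1, which stand on the list of Ly6Clo monocyte markers too. Of 58 genes on the list, 47 fell and 7 rose, and 3 were kept (the background over all genes was 28.1%, 37.3% and 41.4%), with a median log2 fold change of -3.23 against 0.08 for all genes. By level left, 12 genes stood under 1% of their monocyte mean, 16 between 1% and 10%, 16 between 10% and 50%, 8 between 50% and 200%, and 6 above 200%. Among the 43 of them with at least 50 CPM in monocytes, these numbers were 11, 11, 15, 4 and 2. For comparison, 78.8% of the 3852 genes at that level stood between 50% and 200%.

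Plac8, a marker of bone marrow-derived myeloid cells, fell from 1717 to 58.8 CPM, and F13a1, the clotting factor XIII subunit, from 2342 ± 297 to 59.1 ± 13.2 CPM (SD, n = 3 and 4). The middle group, left at between 10% and 50%, held Ccr2 and Lyz2. Lyz2, which encodes lysozyme M and is shared by monocytes and macrophages, read 24904, 20175 and 21141 CPM in the monocyte libraries and 5974, 6785, 5889 and 6810.2 CPM in the macrophage libraries. No library of one group reached the other, and the gene fell by 1.79 (SE 0.11, edgeR adjusted p = 3.95e-10) while remaining abundant. Treml4 and Cd300ld, both immunoreceptors of myeloid cells, were kept. Treml4 was at 119 and 77.8 CPM, and Cd300ld at 106 and 116 CPM.

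A few genes of this list went the other way. Thbs1, which encodes the matrix protein thrombospondin 1, read 49.2, 47.1 and 46.3 CPM in the monocyte libraries and 1612, 2148, 1500.3 and 1517 CPM in the macrophage libraries. It was far above the monocyte range in each macrophage library (log2 fold change 5.16, SE 0.22, edgeR adjusted p = 3.34e-12). Nr4a1, a nuclear receptor needed by Ly6Clo monocytes and induced by cell stimulation, rose by 1.70 (SE 0.17, edgeR adjusted p = 1.38e-07). Tspan13 rose by 1.45 and Ly6a by 2.97. Cebpb, a transcription factor of monocyte maturation, rose by 0.74 and was not kept by the interval, which ran from 0.32 to 1.17.

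Genes for leaving the blood changed in both directions. In the list of adhesion and blood exit, 15 of 31 genes rose (48.39%), 13 fell (41.94%) and 4 were kept (12.9%). The median log2 fold change was -0.03. Among the integrin chains of leukocytes, Itgal, Itga4, Itgb7 and Itgb2 fell, whereas Itgam was kept and Itgax rose. Itgal, the alpha chain of LFA-1, read 1261, 1289.6 and 1068 CPM in the monocyte libraries and 146, 137, 126 and 130.5 CPM in the macrophage libraries, and its groups did not overlap (log2 fold change -3.16, SE 0.10, edgeR adjusted p = 4.91e-14). Itga4, the alpha chain of VLA-4 and of the gut-homing integrin, read 1295, 1606 and 1513 CPM in the monocyte libraries and 387, 371, 353 and 325 CPM in the macrophage libraries. It was lower in every macrophage library (log2 fold change -2.04, SE 0.22, edgeR adjusted p = 5.95e-07).

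Its gut-homing partner Itgb7 fell by 2.74 (SE 0.16, edgeR adjusted p = 1.77e-10), from 685 to 103 CPM, and averaged 36.9 CPM in Tim-4-CD4+ and 14.4 CPM in Tim-4+CD4+ macrophages. Itgb2, the shared beta chain of LFA-1 and CD11b, fell by 1.87, and the selectin ligand Selplg by 1.86. The matrix integrin chain Itgb1, by contrast, was kept at 445 and 435 CPM, and Itgav was kept at 152 and 226 CPM. Itgb5, a beta chain that pairs with Itgav, rose by 2.72, and Jaml, a junction adhesion protein, by 4.11.

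Coagulation and fibrinolysis genes divided in a similar manner, with 14 of 26 higher (53.85%), 10 lower (38.46%) and 1 kept (3.846%). F10, which encodes clotting factor X, read 253, 251 and 179.6 CPM in the monocyte libraries and 0.967, 1.42, 1.73 and 0.776 CPM in the macrophage libraries. Macrophage values were at the edge of detection (log2 fold change -7.53, SE 0.31, edgeR adjusted p = 1.87e-12). Anxa2, a plasminogen receptor subunit, fell by 4.50, while Plau, which encodes urokinase, rose by 4.07 (SE 0.21, edgeR adjusted p = 3.13e-11). Pros1, which encodes the anticoagulant protein S and a bridge to dying cells, was kept at 93.9 and 58.8 CPM.

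The matrix genes included some of the clearest reversals between secreted products. Of 32 genes in the list, 18 rose and 13 fell, with a median of 2.08, or 1.99 with genes at the count floor set to their bound. Emilin2, an elastic fiber protein, fell by 3.63 (SE 0.10, edgeR adjusted p = 1.87e-14), beside Fn1 and Vcan, and Lgals3, which encodes galectin-3, fell by 1.59. Metalloproteinases moved both ways. Mmp8, a collagenase of neutrophil granules, fell from 186 to 1.01 CPM. Mmp9, a gelatinase, read 1.53, 1.07 and 0.892 CPM in the monocyte libraries and 1401, 1809, 1487 and 1436 CPM in the macrophage libraries, Mmp13, a collagenase, rose from 0.314 to 596 CPM, and Mmp14, which is bound to the membrane, from 2.65 to 562 CPM. Tgfbi, a secreted protein induced by TGF-beta, was among the kept genes, at 1744 and 1465 CPM.

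Lineage transcription factors were kept less often than all genes, although some central ones were. Of 71 such factors, 41 rose and 19 fell, and 18 (25.35%, against 41.4% of all genes) were kept, with a median log2 fold change of 0.62. Spi1, which encodes PU.1, the factor that specifies myeloid cells, read 787, 638 and 659.9 CPM in the monocyte libraries and 457, 472, 482 and 449 CPM in the macrophage libraries. The macrophage values were all lower, and the gene fell by 0.58 (SE 0.11, edgeR adjusted p = 1.84e-04) without leaving the 2-fold band. Irf8, which directs monocyte formation, read 477, 406 and 423 CPM in the monocyte libraries and 496, 569.9, 504 and 493 CPM in the macrophage libraries. It rose by 0.24 (SE 0.09, edgeR adjusted p = 0.0252) and was kept, but this rise was no longer called without monocyte replicate 2 or 3 or macrophage replicate 2, or with a replicate block, the replicate number as a term in the fit of both populations (edgeR adjusted p between 0.06 and 0.081). Zeb2, a factor of monocyte and macrophage identity, was 609 ± 36.2 and 599 ± 72.1 CPM, with overlapping libraries and an interval of -0.47 to 0.42.

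Other factors left the 2-fold band. Maf, a regulator of IL-10, read 99.6, 87.3 and 116 CPM in the monocyte libraries and 393, 532, 515 and 469 CPM in the macrophage libraries. It rose by 2.24 (SE 0.22, edgeR adjusted p = 1.33e-07), and Runx3, a factor acting downstream of TGF-beta, by 1.51 (SE 0.16, edgeR adjusted p = 4.71e-07). Klf13 fell by 1.97, Irf7, which drives interferon genes, by 1.78, Cebpd by 1.15, and Irf4, a factor of alternative activation, by 1.09. The aryl hydrocarbon receptor Ahr, which senses dietary and bacterial compounds, was kept at 155 and 137 CPM.

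Receptors for the myeloid growth factor GM-CSF were also kept. Csf2ra read 615, 481 and 584 CPM in the monocyte libraries and 609, 597, 586 and 605 CPM in the macrophage libraries, and Csf2rb averaged 511 and 567 CPM. For both the libraries of the groups overlapped, and the 95% intervals of the log2 fold change were -0.15 to 0.35 and -0.06 to 0.36. Over the 27 receptors for growth factors and cytokines, 12 rose (44.44%), 10 fell (37.04%) and 8 were kept (29.63%). The largest fall among the abundant ones was in Il17ra, the IL-17 receptor, which read 897, 1006 and 944 CPM in the monocyte libraries and 41.1, 37.0, 33.0 and 32.5 CPM in the macrophage libraries. It lost most of its RNA (log2 fold change -4.72, SE 0.15, edgeR adjusted p = 9.06e-14) and averaged 8.67 CPM in Tim-4-CD4+ and 5.24 CPM in Tim-4+CD4+ macrophages. The receptor for IL-6, Il6ra, fell by 1.41, the TNF receptor Tnfrsf1b by 1.88, and the granulocyte growth factor receptor Csf3r by 1.49, while Il4ra, for IL-4 and IL-13, rose by 1.22.

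Lysosomal genes were kept more often than most lists. Among all genes 41.4% were kept, and among those with at least 50 CPM in monocytes 68.64%. Of 58 lysosomal genes, 37 (63.79%) were kept, although 33 rose and 15 fell. Without monocyte replicate 1, 9 fell. By at least 2-fold, 12 rose and 3 fell. Psap, the precursor of the saposins that degrade sphingolipids, read 14854, 12018 and 12725 CPM in the monocyte libraries and 13926, 15357, 13484 and 13918 CPM in the macrophage libraries. These ranges overlapped, as did those of Lamp1, a membrane protein of the lysosome, at 1386 ± 69.4 and 1405 ± 95.3 CPM (SD, n = 3 and 4). Grn, which encodes progranulin, was also kept, at 1006 and 1196 CPM. Proteases were found in each class, since Ctse, cathepsin E, fell by 3.32 and Ctss, cathepsin S, was kept, while Lgmn, which encodes legumain, rose by 3.68 (SE 0.11, edgeR adjusted p = 2.51e-14) and Ctsl, cathepsin L, by 2.92 (SE 0.11, edgeR adjusted p = 4.63e-13).

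Respiratory chain genes were kept in 62 of 76 cases, the highest share of the lists described here, and yet 51 fell and 1 rose, with a median of -0.45. Atp5b, the beta subunit of ATP synthase, was 476 ± 66.6 and 458 ± 15.4 CPM, and Cox4i1, of cytochrome oxidase, was 295 ± 31.9 and 187 ± 10.4 CPM. The exception upward was Ndufa12, of complex I, at 10.1 and 13.1 CPM, a call that was lost without monocyte replicate 2 or 3 or macrophage replicate 3 or 4, with all genes of at least 1 count tested, and with only both populations in the fit, with or without a replicate block (edgeR adjusted p between 0.053 and 0.17). Glycolysis had a similar median of -0.44, with 18 of 30 genes lower, 8 higher and 12 kept, and 11 genes fell by at least 2-fold against 2 of the respiratory chain. Pkm, the pyruvate kinase of most tissues, fell by 1.61 (SE 0.10, edgeR adjusted p = 6.50e-10) and Eno1, an enolase, by 2.00, while Ldha, lactate dehydrogenase A, was kept at 249 and 266 CPM. Pfkfb3, an activator of glycolytic flux, rose by 1.40.

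Genes for the sensing of bacteria were kept about as often as all genes. In the list of Toll-like receptor sensing, 12 of 31 genes (38.71%, against 41.4% of all genes) were kept, 15 fell and 9 rose, with a median log2 fold change of -0.30. Tlr2, the receptor for bacterial lipoproteins, read 119, 118 and 113 CPM in the monocyte libraries and 94.3, 89.2, 94.4 and 103 CPM in the macrophage libraries. The macrophage libraries were slightly lower without overlap, a fall of 0.30 (SE 0.10, edgeR adjusted p = 0.0158) within the band that was lost without monocyte replicate 1 or 2 or macrophage replicate 2 and with upper-quartile scaling (edgeR adjusted p between 0.057 and 0.064). Tlr4, for lipopolysaccharide, was 33.4 and 42.1 CPM and was not called (edgeR adjusted p = 0.135), with a 95% interval of -0.07 to 0.74. With only both populations in the fit, it was called higher (edgeR adjusted p = 0.0077). Tlr9, for bacterial DNA, was kept at 247 and 233 CPM.

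Cd14, the co-receptor for lipopolysaccharide, differed from these. It read 30.5, 38.0 and 38.3 CPM in the monocyte libraries and 1196, 1257, 1032 and 1189 CPM in the macrophage libraries, with every macrophage value above the monocytes (log2 fold change 5.04, SE 0.16, edgeR adjusted p = 5.28e-14). Tlr12, a receptor for a parasite protein, rose from 0.555 to 374 CPM. Nod1, an intracellular sensor of bacterial wall fragments, fell by 1.79, and Cd180, a brake on Toll-like receptor signaling, by 1.31. Feedback genes of NF-kappa B rose in 14 of 20 cases, with 1 lower and 7 kept. Among them, Tnfaip3, which encodes A20, read 35.8, 38.6 and 38.2 CPM in the monocyte libraries and 1594, 1630.0, 1076 and 1311 CPM in the macrophage libraries, and Nfkbiz rose by 5.73. The subunit Rela was kept at 152 and 181 CPM, whereas Nfkb1 fell by 0.85.

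**Figure D4:**
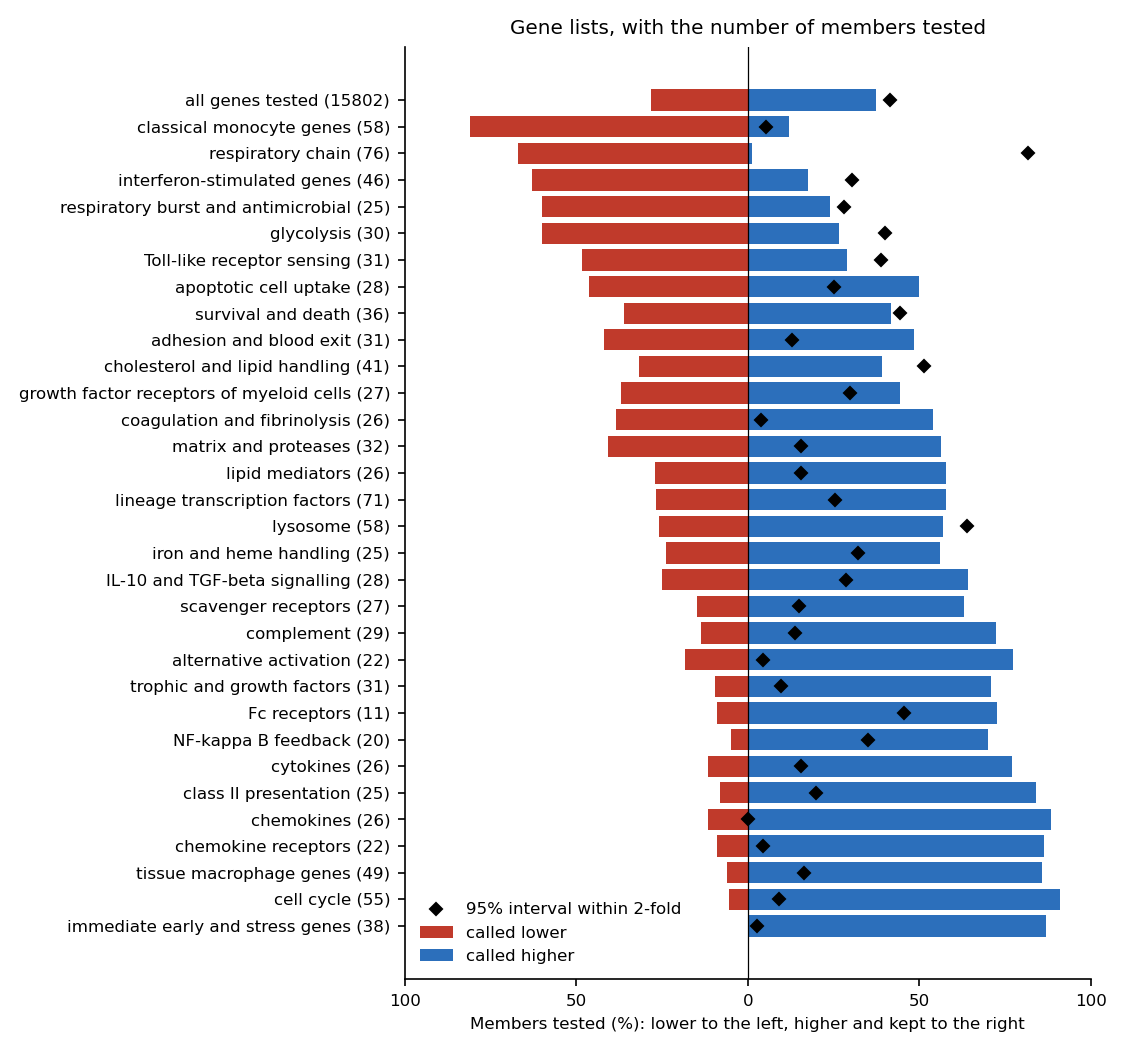
Percentage of the tested members of each gene list, and of all genes tested, that fell (bars to the left) or rose (bars to the right), with a diamond at the percentage kept within 2-fold, which can include genes that rose or fell. Of the classical monocyte genes 47 of 58 fell, of the respiratory chain genes 62 of 76 were kept, and of the immediate early and stress genes 33 of 38 rose and none fell.

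Class II antigen presentation was a nearly uniform gain. Of 25 genes in the list, 21 rose and 2 fell, and 5 were kept, with a median log2 fold change of 3.09. The 2 falls, in Ifi30 and Rfxap, were both lost without monocyte replicate 1 or macrophage replicate 4. H2-Eb1, the beta chain of I-E, read 58.1, 18.8 and 48.2 CPM in the monocyte libraries and 10663, 12050.0, 11397 and 11502 CPM in the macrophage libraries. Monocyte replicate 2 had the lowest value, as it did for H2-Ab1, and no monocyte library came near the macrophages (log2 fold change 8.10, SE 0.35, edgeR adjusted p = 3.71e-12). Cd74, the invariant chain that guides class II molecules, rose from 781 ± 335 to 33499 ± 2353 CPM (SD, n = 3 and 4). Ciita, the master switch of class II transcription, rose by 3.53 (SE 0.29, edgeR adjusted p = 1.77e-08), from 46.2 to 535 CPM.

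Not all parts of the pathway left the 2-fold band. Rfxank and Rfxap, subunits of the complex that binds class II promoters, were kept at 17.3 and 18.0 CPM and at 19.8 and 14.3 CPM, while their partner Rfx5 rose by 1.36. Ctss, which trims the invariant chain, read 3113, 2156 and 2369 CPM in the monocyte libraries and 2989.9, 2978, 3313 and 3411 CPM in the macrophage libraries. The groups overlapped, and the gene rose by 0.32 and was kept. Ifi30, a reductase that unfolds antigens, was kept at 666 and 517 CPM, and March1, which removes class II from the surface, at 256 and 232 CPM. H2-DMb1, a chain of the peptide editor H2-DM, rose by 3.09.

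Promoters of 3 class II genes that rose are shown for a short element, the Y box core. It is not given here as a site of the factors above. Each line gives the 120 bases before the transcription start from RefSeq (GRCm38.p6), 5′ to 3′ on the strand of the gene, with capitals marking the Y box core, CCAAT or its reverse complement ATTGG. H2-Aa is on the minus strand (chr17:34287824-34287943), H2-Eb1 on the plus strand (chr17:34305747-34305866) and H2-DMb1 on the plus strand (chr17:34153071-34153190).
H2-Aa: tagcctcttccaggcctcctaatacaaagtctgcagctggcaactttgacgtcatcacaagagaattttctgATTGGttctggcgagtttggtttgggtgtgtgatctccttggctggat
H2-Eb1: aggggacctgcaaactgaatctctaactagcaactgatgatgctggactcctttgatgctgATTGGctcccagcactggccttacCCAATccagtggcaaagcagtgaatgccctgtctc
H2-DMb1: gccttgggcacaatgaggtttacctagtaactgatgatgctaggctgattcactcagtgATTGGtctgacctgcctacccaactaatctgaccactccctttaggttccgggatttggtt
The element ATTGG began 48 bases before the start in H2-Aa, 59 in H2-Eb1 and 61 in H2-DMb1, and H2-Eb1 held CCAAT 35 bases before it. The search covered both strands of windows from 250 bases before to 50 bases after the start. Windows were at hand for 16 of the 21 class II genes that rose, and 11 of them held the core, in at least 1 window, against 11096 of 27025 genes with windows (41.1%). A match of 5 letters is a description of the sequence and does not show binding.

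Complement genes rose with class II. In this list, 21 of 29 rose, 4 fell and 4 were kept, with a median of 3.18. C1qa, a chain of the C1q molecule that macrophages secrete, read 3.33, 1.53 and 2.06 CPM in the monocyte libraries and 3393, 3393, 3652 and 3411 CPM in the macrophage libraries. No monocyte library came near these values (log2 fold change 10.53, SE 0.29, edgeR adjusted p = 1.11e-14), and C1qb and C1qc rose by 9.39 and 9.97. C3, the central complement protein, moved the opposite way, at 1825, 1667 and 1369.9 CPM in the monocyte libraries and 122, 157, 132 and 126 CPM in the macrophage libraries. It fell by 3.59 (SE 0.15, edgeR adjusted p = 3.37e-12), while the receptor for its fragment, C3ar1, rose by 6.90. Fcnb, a lectin that starts the cascade and is made by monocytes, was listed with no counts in any macrophage library and was at least 89.1-fold lower.

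Several receptors for dying cells and debris rose. Tissue macrophage genes as a whole rose in 42 of 49 cases, with 3 lower and 8 kept, and had a median of 4.77. Mertk, a receptor tyrosine kinase for dying cells, rose from 1.02 to 111 CPM, and its relative Axl from 112 ± 29.4 to 812 ± 42.3 CPM (SD, n = 3 and 4). Mrc1, the mannose receptor, read 20.8, 15.5 and 29.3 CPM in the monocyte libraries and 1113, 1095, 1119.6 and 1151 CPM in the macrophage libraries. Stab1, a scavenger receptor for phosphatidylserine, rose by 8.57 (SE 0.15, edgeR adjusted p = 1.70e-16). Cd163, for hemoglobin bound to haptoglobin, rose from 2.21 to 137 CPM and averaged 552 CPM in Tim-4+CD4+ macrophages.

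In the list for uptake of apoptotic cells itself, 14 of 28 genes rose, 13 fell and 7 were kept. Lrp1, a large endocytic receptor, read 1663, 1610.1 and 1517 CPM in the monocyte libraries and 428, 409.5, 276 and 230.1 CPM in the macrophage libraries, and Abca7, a transporter that aids engulfment, fell by 2.32. Neither overlapped between the groups (log2 fold change -2.25, SE 0.21, edgeR adjusted p = 7.56e-08 for Lrp1). The GTPase Rac1, which drives the actin cup, was kept at 744 and 490.3 CPM. Of 27 scavenger receptors, 17 rose, 4 fell and 4 were kept. Of 11 Fc receptor genes, 8 rose and 5 were kept, with Fcer1g, the signaling chain of the activating receptors, at 855 and 804 CPM, and Fcgr4, a receptor for IgG, rising by 3.12.

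Lipid and iron handling followed single genes rather than whole lists. Of 41 genes for cholesterol and lipids, 16 rose (39.02%), 13 fell (31.71%) and 21 were kept (51.22%). The shares that rose and fell were near those of all genes (37.3% and 28.1%). Apoe, which carries cholesterol out of macrophages, read 1609, 898 and 1734 CPM in the monocyte libraries and 22991, 26798, 26959 and 23885 CPM in the macrophage libraries, with no overlap (log2 fold change 4.15, SE 0.22, edgeR adjusted p = 4.02e-11), and Abca1, the cholesterol exporter, rose by 4.56. Of 25 genes for iron and heme, 14 rose (56.0%), 6 fell (24.0%) and 8 were kept (32.0%). Slc40a1, the iron exporter ferroportin, rose from 0.0891 to 27.1 CPM, where the Tim-4+CD4+ macrophages averaged 218 CPM. The ferritin chain Fth1 rose by 2.05, and Ftl1 rose by 0.60 within the band.

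Killing machinery was lower in part. Among 25 genes for the respiratory burst and antimicrobial products, 15 fell, 6 rose and 7 were kept. Cybb, the catalytic subunit of the oxidase, was at 2831 ± 69.5 and 1622 ± 74.1 CPM (SD, n = 3 and 4), while Ncf1, its cytosolic partner, was kept at 413 ± 28.4 and 410.5 ± 25.7 CPM. Gsr, glutathione reductase, read 1174, 959.5 and 966 CPM in the monocyte libraries and 108, 109.5, 110.5 and 99.9 CPM in the macrophage libraries. It fell by 3.27 (SE 0.11, edgeR adjusted p = 1.25e-13), with Gpx1, a glutathione peroxidase, falling by 1.24. Nos2 and Arg1, which compete for arginine, both rose but had macrophage means of only 0.293 and 0.496 CPM, and for Arg1 replicate 1 read 1.44 CPM against 0.151 to 0.235 CPM in the others.

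Chemokines showed the highest median of the pathway lists. Of 26 chemokine genes, 23 rose and 3 fell, with a median log2 fold change of 9.04, or 6.10 with genes at the count floor set to their bound. Cxcl2 read 0.545, 0.438 and 0.687 CPM in the monocyte libraries and 1148, 1146, 864 and 1176 CPM in the macrophage libraries. Cxcl16, which binds the receptor CXCR6 on lymphocytes, read 4.63, 3.98 and 3.59 CPM in the monocyte libraries and 1092, 1065, 987 and 1086 CPM in the macrophage libraries, and Ccl3 and Ccl4, inflammatory chemokines, rose by 8.67 and 9.41. None of these overlapped between groups. Ccl6 and Ccl9, chemokines of myeloid cells, fell by 1.25 and 2.43 and were the abundant exceptions.

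Of 22 chemokine receptors and related receptors, 19 rose, 2 fell and 1, Cx3cr1, was kept. The falls were in Ccr2 and in Fpr2, a receptor for bacterial peptides, at 35.2 and 21.7 CPM, and Ccr2 alone fell by at least 2-fold. Ccrl2, which binds chemerin without signaling, rose from 5.89 to 891 CPM, and C5ar1, the receptor for complement C5a, from 31.5 ± 3.63 to 578 ± 71.1 CPM (SD, n = 3 and 4). Cxcr4, the marrow retention receptor, read 98.1, 98.6 and 109 CPM in the monocyte libraries and 680.3, 1111, 619 and 702 CPM in the macrophage libraries. Replicate 2 was the highest macrophage library, and none overlapped the monocytes.

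Promoters of Cxcl1 and Cxcl2, on chromosome 5 and both among the 12 largest rises, are shown in the same way, with capitals marking the NF-kappa B consensus GGGANNNNCC or its reverse complement GGNNNNTCCC. Both are on the plus strand, Cxcl1 at chr5:90891125-90891244 and Cxcl2 at chr5:90903779-90903898 (RefSeq, GRCm38.p6).
Cxcl1: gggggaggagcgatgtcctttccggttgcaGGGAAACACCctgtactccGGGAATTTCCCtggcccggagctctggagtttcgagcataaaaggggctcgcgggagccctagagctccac
Cxcl2: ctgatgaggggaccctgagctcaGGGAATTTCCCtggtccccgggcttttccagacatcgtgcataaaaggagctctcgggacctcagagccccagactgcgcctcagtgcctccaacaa
Cxcl1 held GGGAAACACC beginning 90 bases before the start and GGGAATTTCC 71 bases before it, and Cxcl2 held GGGAATTTCC 97 bases before. In both genes the second form, GGAATTTCCC, overlapped this site on the other strand, 1 base further on. Windows were at hand for 15 of the 23 chemokine genes that rose, and 7 of them held the consensus, in at least 1 window, against 6195 of 27025 genes with windows (22.9%).

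Cytokines rose in 20 of 26 cases, with 3 lower and 4 kept. Il10, the main restraining cytokine of gut macrophages, read 0.0638, 0.0778 and 0.0186 CPM in the monocyte libraries and 99.0, 90.0, 72.5 and 83.5 CPM in the macrophage libraries. It was barely detected in monocytes (log2 fold change 10.45, SE 0.29, edgeR adjusted p = 1.50e-14). Il1b, the inflammatory cytokine IL-1 beta, read 47.0, 19.9 and 42.0 CPM in the monocyte libraries and 3685, 4214, 3411 and 3806 CPM in the macrophage libraries (log2 fold change 6.70, SE 0.28, edgeR adjusted p = 2.53e-12), and its antagonist Il1rn rose by 3.44. Tnf rose from 6.79 ± 0.785 to 161 ± 10.98 CPM. Tgfb1, which encodes TGF-beta 1, was kept at 939.7 ± 66.9 and 831 ± 15.1 CPM (SD, n = 3 and 4), and Tnfsf13, which encodes APRIL, fell by 2.90.

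The list of IL-10 and TGF-beta genes holds ligands, receptors, signal carriers and inhibitors. By RNA, 18 of its 28 genes rose, 7 fell and 8 were kept, which does not measure signaling. Il10ra, the ligand-binding chain of the IL-10 receptor, was kept, at 474, 401 and 516 CPM in monocytes and 688, 688, 559.6 and 614 CPM in macrophages. It rose by 0.46 (SE 0.11, edgeR adjusted p = 0.00124). Both signaling receptors for TGF-beta, Tgfbr1 and Tgfbr2, rose, by 1.65 and 1.38. Socs3, a feedback inhibitor of cytokine receptors, rose by 3.32, and Skil, an inhibitor of SMAD proteins, by 3.11.

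Enzymes for different lipid mediators moved in opposite directions. Over 26 genes, 15 rose (57.69%), 7 fell (26.92%) and 4 were kept (15.38%). Alox5ap, which presents arachidonic acid to the enzyme that makes leukotrienes, read 976, 911 and 848 CPM in the monocyte libraries and 58.8, 48.8, 66.8 and 54.8 CPM in the macrophage libraries. It fell by 3.99 (SE 0.16, edgeR adjusted p = 1.44e-12) without overlap. Ptgs1, the constitutive enzyme of prostaglandin synthesis, read 9.63, 8.07 and 8.96 CPM in the monocyte libraries and 742, 778, 674 and 802 CPM in the macrophage libraries. It rose by 6.40 (SE 0.12, edgeR adjusted p = 3.18e-16), beside Ptgs2 above. Ptgir, the prostacyclin receptor, went from 101 to 0.586 CPM, and Ptger4, a receptor for prostaglandin E2, from 65.5 to 189 CPM.

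Trophic factors rose in 22 of 31 cases, with 3 lower and 3 kept, and their median of 5.53 was 3.42 with genes at the count floor set to their bound. Igf1, a growth factor that supports epithelium and nerves, rose from 0.358 to 31.6 CPM, Pdgfb, for mesenchymal cells, from 14.1 to 156 CPM, and Vegfa, for vessels, from 0.0383 to 42.6 CPM. Vegfa averaged 14.3 CPM in Tim-4-CD4+ and 6.71 CPM in Tim-4+CD4+ macrophages. Of 22 genes for alternative activation, 17 rose, 4 fell and 1 was kept. Retnla, a secreted protein of this state, had no counts in monocytes and read 14.9, 8.29, 17.8 and 11.9 CPM in macrophages, at least 374-fold higher.

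Immediate early and stress genes rose almost without exception, in 33 of 38 cases, with none lower, 1 kept and a median log2 fold change of 3.95. Fos, which encodes an AP-1 subunit, read 173, 169 and 244 CPM in the monocyte libraries and 6170.4, 7487, 6243 and 6454 CPM in the macrophage libraries. Fosb rose by 9.36 (SE 0.20, edgeR adjusted p = 9.06e-16) and Egr1 by 7.56 (SE 0.20, edgeR adjusted p = 1.11e-14). The heat shock gene Hspa1a was the most uneven, at 155, 534, 130.4 and 279.8 CPM in macrophage replicates 1 to 4 against 2.42, 2.26 and 8.62 CPM in monocytes. Genes of this list are known to respond to the handling of tissue. Digestion of the gut and population cannot be told apart for them, nor for the chemokines, cytokines and feedback genes above. Mcl1, a survival gene, was kept at 1191 and 1666 CPM.

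Interferon-stimulated genes mostly fell. Of 46 genes, 29 fell, 8 rose and 14 were kept, with a median of -0.71. Samhd1, which depletes nucleotides, read 3612, 2455 and 2704 CPM in the monocyte libraries and 558, 568, 585 and 563 CPM in the macrophage libraries. No macrophage library reached the monocyte range (log2 fold change -2.36, SE 0.11, edgeR adjusted p = 1.04e-11). Oas3, a sensor of double-stranded RNA, fell by 2.87, and Oasl2 by 1.22. Chemokines among the targets rose, with Cxcl10 at 23.3 ± 9.46 and 425 ± 71.7 CPM (SD, n = 3 and 4).

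Cell cycle genes rose in 50 of 55 cases, with 3 lower and 5 kept, and had a median of 2.83. Mki67, which marks cycling cells, read 4.87, 8.63 and 6.04 CPM in the monocyte libraries and 84.7, 81.8, 74.5 and 89.9 CPM in the macrophage libraries. The groups did not overlap (log2 fold change 3.67, SE 0.26, edgeR adjusted p = 2.67e-09). The D-type cyclins parted, since Ccnd1 and Ccnd2 rose by 5.31 and 6.85 while Ccnd3 read 484, 407 and 392 CPM in the monocyte libraries and 31.2, 52.5, 38.4 and 33.6 CPM in the macrophage libraries. It fell by 3.46 (SE 0.26, edgeR adjusted p = 4.44e-09). The inhibitor Cdkn1a rose by 3.00, and Mki67 averaged 72.8 CPM in Tim-4-CD4+ and 45.5 CPM in Tim-4+CD4+ macrophages. In the list of survival and death, 15 of 36 genes rose (41.67%), 13 fell (36.11%) and 16 were kept (44.44%). These shares were near those of all genes (37.3%, 28.1% and 41.4%).

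The monocyte genes of which Tim-4-CD4- macrophages held the highest share were sought among 268 genes with at least 50 CPM in monocytes and at least 4-fold lower in both CD4+ subsets. This choice used these levels, so the values are a description without a test. In Tim-4-CD4- macrophages 211 of the 268 were also at least 4-fold lower. At least 50% of the monocyte level was left in 1 gene, Coro2a, a coronin that binds actin, at 126 CPM in monocytes, 71.4 CPM in Tim-4-CD4-, 21.6 CPM in Tim-4-CD4+ and 15.1 CPM in Tim-4+CD4+ macrophages. It kept 56.8% of its level.

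Next in order came Lsr, a lipoprotein receptor, with 45.9%, Gbp2, an interferon-induced GTPase, with 44.5%, and Ccl6 with 42.0%. Gbp2 rests on uneven monocytes, which read 327, 75.5 and 88.8 CPM and overlapped the macrophages at 74.6, 69.0, 79.2 and 68.5 CPM. Without monocyte replicate 1 its log2 fold change went from -1.17 to -0.15. Vim, the filament protein vimentin, had means of 2677, 1061, 509.8 and 348 CPM over the same 4 populations, and Lpl, lipoprotein lipase, 158, 61.2, 27.3 and 24.4 CPM. Pfkp, a phosphofructokinase of glycolysis, stood at 119.5, 45.6, 28.2 and 27.4 CPM. Ccr2, at 25.1% in Tim-4-CD4- macrophages, was below these.

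**Figure D5:**
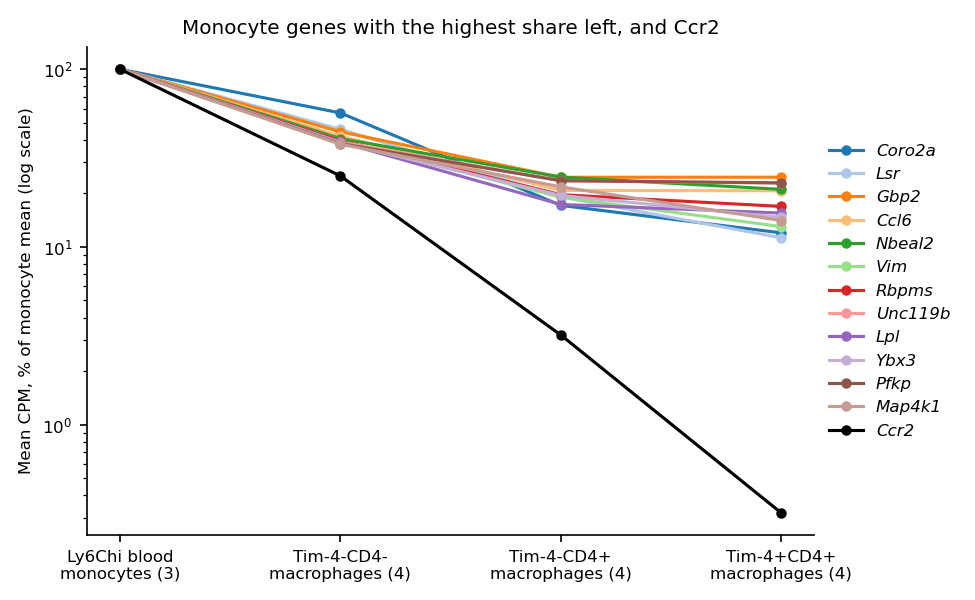
Mean CPM as a percentage of the monocyte mean (log axis) in monocytes and the 3 macrophage subsets, for Ccr2 (black) and for the 12 genes with the highest share of the monocyte level left in Tim-4-CD4- macrophages, among 268 genes at least 4-fold lower in both CD4+ subsets. Lines join the means of a gene and imply no order in time. Coro2a is highest in Tim-4-CD4- macrophages at 56.8%, and Ccr2 is at 25.1%.

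Markers of other cells were read as summed levels in each library. B and plasma cell markers moved most, from between 262 and 284 CPM in monocytes to between 4125 and 5915 CPM in macrophages, with Igha at 2487, 3472, 3410.3 and 2282 CPM, Igkc at 1393 CPM and Jchain at 297 CPM, against 1.52, 1.03 and 0.174 CPM in monocytes. The sum of 14 T cell markers was between 1.56 and 3.48 CPM in monocytes and between 12.9 and 19.0 CPM in macrophages, that of 11 NK and innate lymphoid markers 1.21 to 1.86 and 5.67 to 9.59 CPM, and that of 25 epithelial markers 34.5 to 50.9 and 47.4 to 71.0 CPM. The largest part of the epithelial sum was Lyz1, a lysozyme gene, at 40.0 and 38.6 CPM and not called. Of the 22 epithelial markers tested, 18 rose and none fell. Mesenchymal and muscle markers summed to 10.96 to 14.21 and 94.2 to 134 CPM, endothelial markers to 66.0 to 109.6 and 134.6 to 190.2 CPM, neuronal and glial markers to 0.539 to 1.19 and 2.33 to 5.15 CPM, and erythroid and platelet markers to 70.7 to 92.7 and 139.9 to 157.7 CPM. In the last list the macrophage sum was nearly all Pf4, a chemokine of platelets and macrophages, at 0.164 and 136 CPM, and 6 of its 9 tested members fell, such as Alas2, the heme synthesis enzyme of red cells, at 4.21 and 0.529 CPM. Dendritic cell markers overlapped, at 1269 to 1379 and 1311 to 1430.0 CPM, but most of this sum was Sirpa at 1186 and 1002 CPM, and 10 of 13 members rose. One of them, Itgae, an integrin chain of intestinal dendritic cells, read 5.09, 5.43, 24.7 and 3.21 CPM in macrophages, highest in replicate 3. Flt3 (7.575, 4.406, 17.87 and 4.762 CPM), Ccr7 (5.859, 3.435, 14.27 and 5.151 CPM), Zbtb46, Cd24a and Fscn1 were also highest in replicate 3. Clec9a, Batf3 and Sirpa were lowest there. Of the epithelial markers, Epcam and Cdh1 were highest in replicate 3 too, at 10.84 and 10.65 CPM, whereas the epithelial sum was highest in replicate 2. The cause was not tested. Ly6Clo monocyte markers overlapped at 2108 to 2544 and 2538 to 2919 CPM, with 4 of 11 higher, among them Nr4a1 and Itgax, and 6 lower, among them Ace and Spn. The 10 neutrophil markers summed to 601.5 to 764.6 CPM in monocytes, mostly Cd177 and Mmp8, and to 1405 to 1811 CPM in macrophages, mostly Mmp9. Eosinophil, basophil and mast cell markers stayed under 10 CPM in every library. All of these lists but the dendritic cell, Ly6Clo monocyte and epithelial ones were higher in each macrophage library than in each monocyte library, and their part in the results was not tested.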

How the data were processed

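RNA from sorted cells was made into strand-specific mRNA libraries. Reads were trimmed by the authors (Trimmomatic 0.36) and mapped with STAR to GRCm38.p4. The authors then deposited raw counts per gene, without normalization, which HTSeq 0.6.1p1 had made from reads with a single place in the genome and the GENCODE vM11 genes. Genes with near-identical copies can lose reads by this, and the strand setting of the counting, which decides whether overlapping antisense genes are kept apart, is not given in the sources used here. Every one of the 19456 genes in the table had at least 16 counts in total. Another 15 columns of per-sample values, with normalized levels, were not used.

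Groups were taken from the deposited titles. Genes were filtered with filterByExpr, scaled with TMM and fitted with the quasi-likelihood test of edgeR 4.0.16 in R 4.3.3 (limma 3.58.1), with all 15 libraries and 4 groups in 1 fit and Benjamini-Hochberg adjustment over 15802 genes at a threshold of 0.05. SE is the size of the log2 fold change divided by the square root of F, and 95% intervals use the t distribution. The test was checked on simulated counts in which few genes changed, equally in both directions. Such counts cannot check the scaling or the calls under a difference as broad and uneven as the one found here. CPM are scaled by TMM. Where a group had 3 or fewer counts in every library, folds are bounds at a floor of 3 counts per library, which cover counting error alone (the libraries had no molecular identifiers). Symbols and positions are from GENCODE M21 (19421 of 19456 identifiers matched). Figures were drawn with Python 3.11.15, pandas 2.3.3 and matplotlib 3.10.9.

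Genes were named as the markers and sort proteins, as the 12 largest changes in each direction with at least 50 CPM in the higher group and no overlap (markers of B, T, NK, epithelial, erythroid, neuronal, mesenchymal and endothelial cells left out), as up to 4 abundant members per list and direction with at least 2-fold changes plus kept members, as the 12 monocyte genes with the highest share left among those low in both CD4+ subsets, and as further members of the lists or marker lists that complete a pathway, chosen with their values known. A few genes that this rule names are not reported here. The gene lists, members and tests were chosen with earlier results of these data known. Alternatives were DESeq2 1.42.0, other scalings and filters, a fit of both populations alone with and without a replicate block, thinned counts, stricter folds, and leaving out each library in turn.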

Additional observations from a re-analysis of the deposited data

Results flagged for a closer look

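Of 207 named genes, 15 had 1 macrophage library apart from the other 3 by Dixon's ratio, a test that chance passes in about 1 of 20 groups of libraries. Some genes given only as levels from the marker lists are not part of these 207, here or in the checks below. Replicate 3 stood apart for 6 of them. In it, Cxcl2 was lowest at 863.7 CPM (others 1146 to 1176), Il1a lowest at 48.75 CPM (68.12 to 71.77), Irf7 highest at 173.6 CPM (135.0 to 139.9), C1qa highest at 3652 CPM (3393 to 3411), Itgae highest at 24.71 CPM (3.209 to 5.428) and Serpinb10 highest at 0.3881 CPM (0.01825 to 0.05026). Replicate 2 stood apart upward for 4 genes. These were Cxcr4 at 1111 CPM (619.4 to 701.9), Irf8 at 569.9 CPM (492.7 to 504.3), Runx3 at 235.9 CPM (187.2 to 190.7) and Rfxap at 17.53 CPM (13.07 to 13.56). Replicate 4 was lowest for Hp at 1.527 CPM (1.809 to 1.825), Pdgfb at 149.9 CPM (157.8 to 158.7) and Pkm at 426.0 CPM (445.9 to 449.8). In replicate 1, Arg1 was highest at 1.442 CPM (0.1509 to 0.2346) and Rac1 lowest at 462.7 CPM (497.9 to 501.7).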

How the results depend on the processing

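Among the named genes, no change called in the main fit or in an alternative reversed direction between them. Genes called in neither were not checked for direction. Over all genes, the counts of higher, lower and kept genes (5900, 4441 and 6542) stayed within 1.5 times these values under DESeq2 (6513, 4335 and 6639), upper-quartile scaling (6198, 3980 and 6578), a mean of at least 1 CPM (4235, 3894 and 6504) and the others, with 2 exceptions that follow from their construction. With a change of at least 2-fold required, 4404 genes rose and 1630 fell, so that 72.99% of calls were higher instead of 57.05%. With the interval held within 1.5-fold, 3345 genes were kept. Leaving out 1 library at a time gave 5690 to 5806 higher, 3755 to 4119 lower and 6221 to 6417 kept genes. On the same 15802 genes, the median log2 fold change was 0.08 in the main fit, 0.11 with relative log expression scaling and 0.15 with upper-quartile scaling. DESeq2, run over 19456 genes, gave 0.16.

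Same-numbered monocyte and macrophage libraries did not deviate together (correlations of -0.088, -0.00347 and 0.00034). Deviations in different cells cannot tell whether the sorts were paired, and the main fit took them as unpaired. With a replicate block in the fit of both populations, 5064 genes were higher, 3992 lower and 6424 kept, against 5418, 4501 and 6769 without it. Of the named genes, the block ended the calls of Irf8 (0.31), Ndufa12 (0.41), Gbp2 (-0.75), Ctss, Grn, Ifi30, Sirpa and Tgfbi.

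Of the counts of list members, 45 values over 26 counts moved by more than 1.5 times, mostly when at least 2-fold was required. Of the named genes, 13 lost their call under at least 1 alternative and 4 gained one, all with changes near or below 1 on the log2 scale. Besides those given above, Ctss was lost without monocyte replicate 2 (0.24) or 3 (0.29) and with the replicate block (0.34), and Fpr2 without monocyte replicate 1 or 2 (-0.58 to -0.50). Grn was lost in 7 settings (0.22 to 0.30), Tgfbi in 12 (-0.27 to -0.10), Ifi30 in 6 (-0.34 to -0.15), Rfxap in 4 (-0.43 to -0.38) Rela in 4 (0.23 to 0.26) and Sirpa in 4 (-0.20 to -0.18). The cause was not tested. Csf2rb (0.28) and Ldha (0.34) were called higher without monocyte replicate 1. Depth limited the genes with 3 or fewer counts in a group to bounds.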
